A study of Mus musculus with 15 samples.

Results

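The 9 genes Cbx2, Cbx6, Cbx7, Cbx8, Phc1, Phc2, Phc3, Bmi1 and Pcgf2 encode the chromodomain, Polyhomeotic and PCGF subunits of canonical Polycomb repressive complex 1 (PRC1). They were taken by name from a table of 21889 genes, and all 9 had enough reads to be tested. RNA was sequenced from 15 libraries of purified mouse cerebellar cells, 3 in each of 5 groups. The first group was granule neuron precursors of the embryonic age E15.5 with the genotype Math1-GFP. The next groups were granule neuron precursors of wild-type mice at postnatal days 1, 7 and 14 (P1, P7 and P14). The last was medulloblastoma (MB) cells of mice labelled Ptch1 heterozygous, for which no age is given. Cells were enriched by Percoll gradient fractionation, which sorts by density and not by a marker, and polyadenylated RNA was sequenced. E15.5 differs from the other ages in genotype as well as age, and these cannot be told apart. MB differs from the wild-type groups in genotype and in being tumour. The labels do not say whether replicates came from separate animals, so p-values measure only the spread between these samples.

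PRC1 is a histone H2A ubiquitin ligase built on Ring1 or Rnf2 and a PCGF partner. The canonical form carries a Cbx protein, whose chromodomain binds the H3K27me3 mark laid down by PRC2, and a Phc protein, whose SAM domain polymerizes and compacts chromatin. Its PCGF partner is Bmi1 (Pcgf4) or Pcgf2 (Mel18). The Polycomb Cbx paralogues are alternative occupants of the same position, as are the 3 Phc paralogues. Bmi1 is known in the cerebellum as a gene needed for the expansion of granule neuron precursors and as a repressor of the Ink4a-Arf locus (Cdkn2a).

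The depth was 12597472 to 43443132 reads counted in genes per library. Levels are given in CPM, read counts as parts of the library total scaled by TMM, a normalisation between libraries. Ptch1, the gene of the MB genotype, was at 202, 341 and 349 CPM in the MB libraries and at 252 to 340.1 CPM at P7, so the whole-gene count does not check the heterozygous label. Summed over 8 precursor markers, the level was 1978 to 2787 CPM at E15.5, 3184 to 4816 at P1, 3897 to 5357 at P7, 2119 to 2604 at P14 and 8116 to 8726 in MB. Markers of other cells moved with age. The 10 oligodendrocyte markers summed to 96.5 to 121 CPM at E15.5 and 6669 to 7201 CPM at P14, and the 7 endothelial markers to 11.9 to 31.9 and 709 to 738 CPM. In MB these lists were at 679.6 to 974 and 18.6 to 32.1 CPM. Choroid plexus markers ranged from 407 to 10509 CPM within P1. Gabra6, a marker of mature granule neurons, was at 0 in all E15.5 libraries. A pair of libraries stood apart from their groups. MB replicate 1 differed by over 1 log2 unit from the mean of the other MB libraries in 24.2% of tested genes, against 7.59% and 9.43% for replicates 2 and 3, and it was low in GC-rich genes. P1 replicate 3 had 4300 CPM of oligodendrocyte markers against 642 and 1084 CPM, and 3156 CPM of 8 granule neuron markers against 1303 and 1253 CPM. In bulk RNA, fewer cells of a type and less RNA per cell cannot be told apart.

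Some of the genes are near neighbours. In the deposited mm9 gene models, Cbx2 (chromosome 11, 118884276 to 118892584, plus strand) ended 5.03 kb from Cbx8 (118897619 to 118902283, minus strand). Cbx6 (chromosome 15, 79654326 to 79665118, minus strand) and Cbx7 (79746237 to 79763082, minus strand) were 81.1 kb apart. The others were at chromosome 6, 122267749 to 122290579 (Phc1), chromosome 4, 128382240 to 128430125 (Phc2), chromosome 3, 30798293 to 30868327 (Phc3), chromosome 2, 18598645 to 18608256 (Bmi1) and chromosome 11, 97551106 to 97561811 (Pcgf2). Exons of Cbx6 overlapped those of its same-strand neighbours Npcd over 563 bases and Nptxr over 246 bases, so its counts are less certain than those of the other genes.

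The 250 bases before the RefSeq starts (GRCm38.p6) were read for 8 of the 9 genes, Cbx2 having no entry. The sequence of the E-box bound by Myc-family factors, CACGTG, which reads alike on both strands, occurred before at least 1 start of 6 of the 8 genes. By window, 6 of the 10 windows of these genes held the sequence, Phc2 having more than 1 start. It occurs in 6.02% of all 32851 such windows, and in 9.37% of the 12417 windows with at least 10 CpG dinucleotides. The Pcgf2 window, with 5 CpG dinucleotides, is not among the latter. Cbx7 and Phc1 had no match in this window, and a match is only a description of the sequence. The 80-base stretches that hold it are shown because 6 of the 8 genes hold it, with the E-box in capitals, 5′ to 3′ on the strand of the gene.
Bmi1 (chr2:18676768-18676847, plus strand): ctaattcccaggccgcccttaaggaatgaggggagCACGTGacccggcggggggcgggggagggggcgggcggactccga
Cbx6 (chr15:79834334-79834413, minus strand): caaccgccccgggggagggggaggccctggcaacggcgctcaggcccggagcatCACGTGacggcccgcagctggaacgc
Cbx8 (chr11:119040969-119041048, minus strand): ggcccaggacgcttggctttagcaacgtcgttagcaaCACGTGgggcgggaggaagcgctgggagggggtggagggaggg
Pcgf2 (chr11:97699743-97699822, minus strand): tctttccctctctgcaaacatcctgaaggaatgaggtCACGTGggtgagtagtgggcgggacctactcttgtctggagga
Phc2 (chr4:128654608-128654687, plus strand): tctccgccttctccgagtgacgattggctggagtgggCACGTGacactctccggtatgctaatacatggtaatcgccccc
Phc3 (chr3:30969455-30969534, minus strand): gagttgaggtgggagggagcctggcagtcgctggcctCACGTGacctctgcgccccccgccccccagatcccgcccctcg
The E-box began 26 bases before the start of Cbx6, 57 before that of Phc2, 82 before that of Phc3, 98 before that of Cbx8, 137 before that of Pcgf2 and 215 before that of Bmi1. An exact GLI site (GACCACCCA, either strand, in 0.225% of windows) and 4 exact E2F sites (TTTCCCGC, TTTGGCGC, TTTCGCGC, TTTGCCGC, either strand, in 1.86% of windows together) had no match before any of the 8 genes.

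Cbx2, whose protein has its own chromatin-compacting region and which is known as the Cbx of proliferating progenitors, had the widest range of group means, 1.61 log2 units. It was at 101, 94.1 and 81.9 CPM in the E15.5 libraries, 70.2, 64.6 and 45.6 at P1, and 63.1, 87.2 and 81.8 at P7. It was then at 43.3, 37.8 and 45.7 CPM at P14 and at 109, 139 and 142 CPM in MB. All 3 MB libraries lay above every library of the 4 ages. All 3 P14 libraries lay below every E15.5 and P7 library but overlapped with P1 replicate 3.

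Phc1, a Polyhomeotic protein abundant in embryonic and stem cells, followed a similar course. It was at 223, 233 and 193 CPM at E15.5, 127, 117 and 125 at P1, and 159.8, 207 and 236 at P7. It was at 150.1, 133 and 151 CPM at P14 and at 307, 287 and 278 CPM in MB. Here too the MB libraries were above all others, and the P1 libraries were below all others.

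Bmi1 was steady in most libraries and high in MB. Its levels were 102, 105 and 107 CPM at E15.5, 116, 103 and 123 at P1, and 125, 129.7 and 127 at P14. At P7 they were spread from 102 CPM in replicate 3 through 172 in replicate 1 to 255 in replicate 2, so that the P7 group overlapped with all the others. In MB they were 427, 236 and 222 CPM, with replicate 1, the library that stood apart, far above the other 2.

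Pcgf2, the other PCGF partner, had 107, 105 and 79.9 CPM at E15.5, 59.2, 55.2 and 60.8 at P1, and 68.4, 85.2 and 96.3 at P7. It had 63.8, 58.2 and 69.4 CPM at P14 and 90.5, 92.8 and 84.5 in MB. The P1 libraries were below all libraries of E15.5, P7 and MB, and the MB range lay within those of E15.5 and P7.

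Phc2, the broadly expressed Polyhomeotic gene, was at 478, 386 and 510.0 CPM at E15.5. It was at 274, 204 and 246 CPM at P1, 298, 292 and 384 at P7, 321, 329 and 356 at P14 and 222, 331 and 365 in MB. Every E15.5 library was above every library of the other groups, and P7, P14 and MB overlapped.

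Cbx7, known as a Cbx of differentiated and quiescent cells, had the fewest reads. Its levels were 5.63, 4.68 and 3.81 CPM at E15.5, 4.72, 5.85 and 6.22 at P1, and 6.49, 11.5 and 5.70 at P7. They were 8.83, 10.1 and 9.89 CPM at P14 and 7.66, 9.45 and 11.6 in MB. The P14 and MB libraries were above every E15.5 and P1 library.

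The remaining genes each had a wide spread within at least 1 group, which for Cbx8 was mainly MB. Cbx6 is the Cbx paralogue described as enriched in neural tissue. The protein of Cbx8 has a chromodomain with weak preference for methylated H3, and Phc3 is the third Polyhomeotic gene. Cbx6 was at 144 to 168 CPM at P14, 74.3 to 122 at E15.5, 95.0 to 132 at P1 and 61.1 to 106 at P7. In MB it was at 33.7 CPM in replicate 1 and at 127 and 159 CPM in the others. Cbx8 was at 16.0 to 20.2 CPM at P1 and between 22.6 and 31.7 CPM in all libraries of E15.5, P7 and P14, and in MB it was at 8.96, 28.6 and 24.2 CPM. Phc3 was at 40.9 to 132 CPM over the 15 libraries with overlap between most groups.

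**Figure D1:**
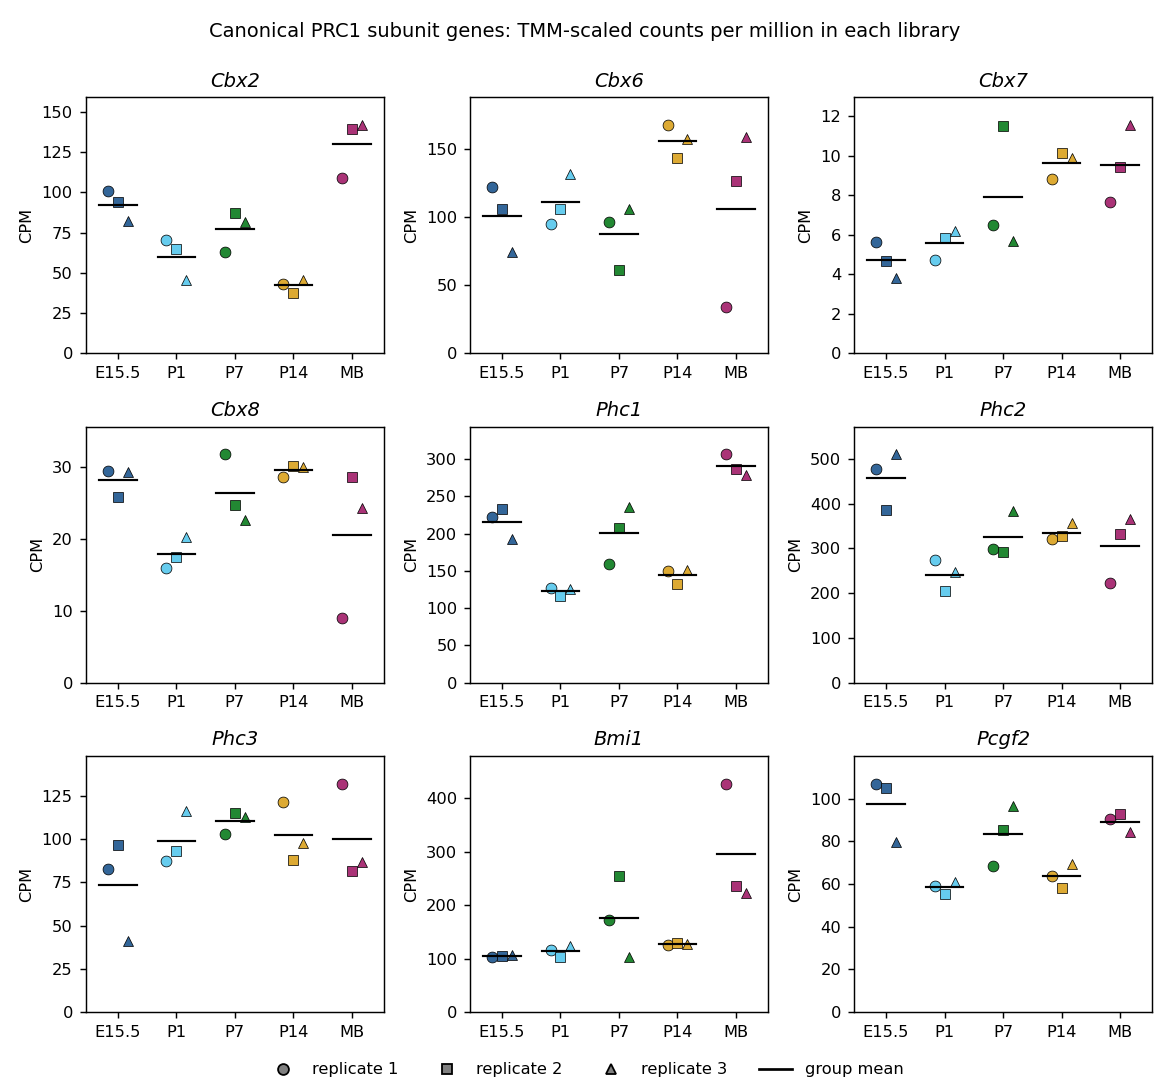
CPM of the 9 genes in each of the 15 libraries, 1 panel per gene with its own axis from 0. Points are libraries, with the shape giving the replicate number, and bars are group means. The MB libraries of Cbx2 and Phc1 are above all others. MB replicate 1 is furthest from the other MB libraries, on the log2 scale, for Cbx6, Cbx8, Bmi1, Phc3 and Phc2.

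To ask whether the genes changed with age at all, the 4 ages were compared in 1 test with edgeR's quasi-likelihood method, a gene being called when its Benjamini-Hochberg adjusted p (FDR) over 15259 genes was under 0.05. Of the 9 genes 5 were called, beside 55.7% of all genes. These were Cbx2 (edgeR FDR 0.00107), Phc1 (0.00145), Pcgf2 (0.0044), Phc2 (0.00955) and Cbx7 (0.0207). Cbx6, Cbx8, Phc3 and Bmi1 were not called. The call of Cbx7 was lost without E15.5 replicate 3, P14 replicate 2 or P14 replicate 3 and with a correction for GC content and gene length. Without MB replicate 1, a library of none of the 4 ages, 8 of the 9 were called, all but Phc3, beside 67.1% of 15474 genes tested. The 5 of 9 called with all libraries is close to the share of all genes.

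Between E15.5 and P1, 4 of the 9 genes were called and all 4 were lower at P1, beside 46.3% of all genes called in either direction and 20.9% called lower. Phc2 fell 1.90-fold (log2 change -0.92, SE 0.20, edgeR FDR 0.0019), Phc1 1.76-fold (-0.81, SE 0.16, edgeR FDR 7.93e-04), Pcgf2 1.67-fold (-0.74, SE 0.16, edgeR FDR 0.00202) and Cbx2 1.54-fold (-0.62, SE 0.19, edgeR FDR 0.0154). Each had all P1 libraries below all E15.5 libraries. Cbx8 had the same separation with a log2 change of -0.65 (SE 0.30) that was not called (edgeR FDR 0.0912), and was called without MB replicate 1 (edgeR FDR 0.00413). The call of Cbx2 was lost without P1 replicate 3 (-0.46, edgeR FDR 0.0731), without E15.5 replicate 1, with upper-quartile scaling, with E15.5 replicate 2, the one counted like those of P1, as the only E15.5 library, and with a correction for GC content and gene length (-0.36, edgeR FDR 0.134). Bmi1, Cbx6, Cbx7 and Phc3 had log2 changes of 0.12, 0.14, 0.25 and 0.43 and were not called. The median of the 9 genes was -0.62 and that of all genes was 0.03. In the same comparison all 8 astroglial, all 10 oligodendrocyte, all 7 endothelial and all 7 pericyte and fibroblast markers were called higher at P1. Of the 7 GABAergic interneuron markers 5 were called lower at P1 and 1 higher, and of the 7 Purkinje cell markers 2 lower and 2 higher. The part of all these cells in the differences was not tested.

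From P1 to P7, 8 of the 9 genes had a positive log2 change, beside 48.6% of all genes, but Phc1 alone was called, beside 3.15% of all genes. Phc1 rose 1.63-fold (log2 change 0.71, SE 0.16, edgeR FDR 0.0291). This call was lost when P1 replicate 1 or 2, P7 replicate 2 or 3, or P14 replicate 1 or 3 was left out, and with the groups compared alone. Pcgf2 (0.51, SE 0.16, edgeR FDR 0.0941), Cbx8 (0.56, SE 0.30, edgeR FDR 0.325) and Phc2 (0.43, SE 0.20, edgeR FDR 0.252) also had every P7 library above every P1 library and were not called. The 95% interval of the change of Pcgf2 was 0.15 to 0.88 on the log2 scale. All P7 libraries were counted with a gene table that assigned under 10% of the Tsnax reads of the transcript table, and no P1 or P14 library was, so P7 cannot be told apart from that difference. The reads of the 9 genes in the gene table were 79.1% to 102% of those in the transcript table in libraries counted that way and 83.4% to 102% in the rest.

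From P7 to P14, an interval in which precursors are known to leave the cell cycle, Cbx2 alone was called, beside 10.3% of all genes. It fell 1.83-fold (log2 change -0.87, SE 0.19, edgeR FDR 0.0147), with all P14 libraries below all P7 libraries. The call was lost without P7 replicate 2, P14 replicate 1 or P14 replicate 2. Phc1 also had all P14 libraries below all P7 libraries (-0.47, SE 0.16, edgeR FDR 0.0676), and Cbx6 all P14 libraries above them (0.83, SE 0.39, edgeR FDR 0.179). Both were called without MB replicate 1 (edgeR FDR 0.0428 and 0.0213), where 18.3% of all genes were called and 3 of the 9. The oligodendrocyte markers summed to 1089 to 2182 CPM at P7 and 6669 to 7201 CPM at P14. Their part in these differences was not tested.

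P14 against P1 gave no call among the 9 genes, beside 8.94% of all genes. At an unadjusted p under 0.05 there were 4, and DESeq2 called 1, Cbx7, beside 12.5% of genes with a DESeq2 p. The lowest adjusted p values were those of Cbx7 (log2 change 0.78, SE 0.28, edgeR FDR 0.0902) and Cbx2 (-0.51, SE 0.19, edgeR FDR 0.101). Cbx2 was called without P1 replicate 3 (-0.67, edgeR FDR 0.0239), and that library had the lowest Cbx2 of P1 and the highest oligodendrocyte marker sum. Over the longest span, P14 against E15.5, 4 of the 9 genes were called beside 50.9% of all genes, 24.2% lower and 26.7% higher. Cbx2 fell 2.19-fold (-1.13, SE 0.19, edgeR FDR 2.13e-04), Pcgf2 1.52-fold (-0.61, SE 0.16, edgeR FDR 0.00605) and Phc1 1.49-fold (-0.58, SE 0.16, edgeR FDR 0.00694), while Cbx7 rose 2.05-fold (1.03, SE 0.29, edgeR FDR 0.00722), a call lost with E15.5 replicate 2 as the only E15.5 library. Cbx2 and Cbx7 thus moved in opposite directions over this span, on a scale of 42.3 ± 4.04 CPM for Cbx2 and 9.62 ± 0.689 CPM for Cbx7 at P14 (SD, n = 3).

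**Figure D2:**
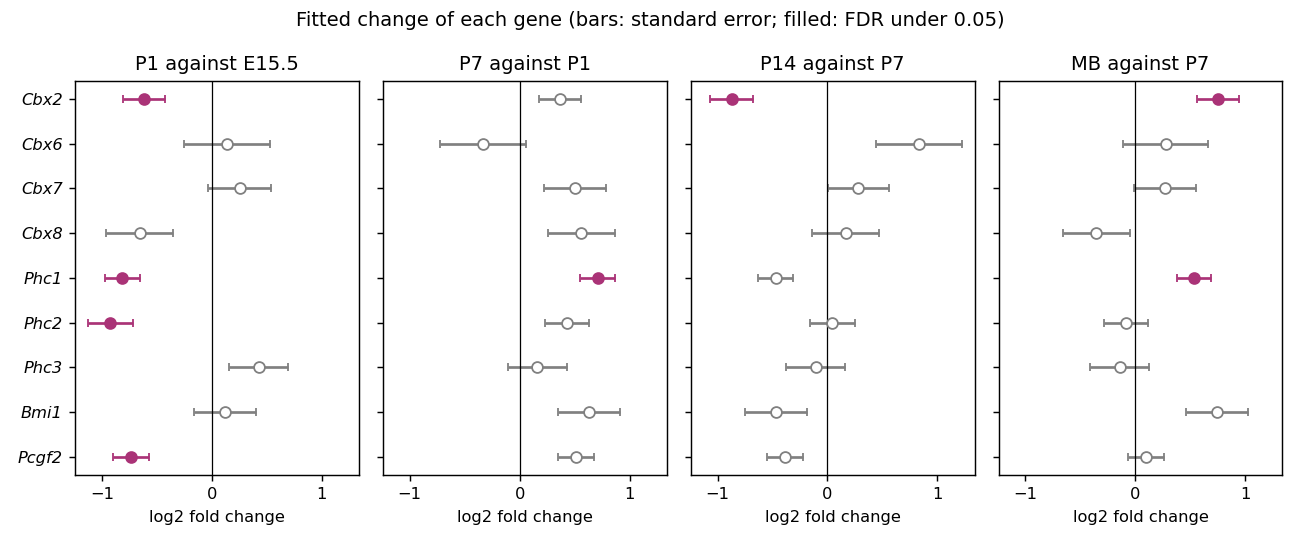
Fitted log2 fold changes of the 9 genes in 4 comparisons, with standard errors as bars. Filled points passed an FDR of 0.05 in edgeR: 4 genes were lower at P1 than at E15.5, Phc1 was higher at P7, Cbx2 was lower at P14, and Cbx2 and Phc1 were higher in MB than at P7.

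The tumour comparison set MB beside P7, known as an age of active precursor division. In it 6 of 8 precursor markers were called higher in MB. All 7 endothelial and 5 of 7 GABAergic interneuron markers were called lower, and of 10 oligodendrocyte markers 7 lower and 2 higher. The part of cell mixture in the differences below was not tested. Of the 9 genes, Cbx2 and Phc1 were called, both higher in MB, beside 34.5% of all genes in either direction and 13.7% called higher. Cbx2 was 1.68-fold higher (log2 change 0.75, SE 0.19, edgeR FDR 0.00641) and Phc1 1.45-fold higher (0.53, SE 0.16, edgeR FDR 0.0159), each with every MB library above every P7 library. Both kept a positive change without MB replicate 1, at 0.86 and 0.49. The call of Phc1 was lost without P7 replicate 1 and with the groups compared alone. Against P7, MB replicate 1 on its own, the only MB library counted like those of P7, gave 0.48 for Cbx2 (edgeR FDR 0.133) and 0.60 for Phc1.

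Bmi1 had a change as large as that of Cbx2 but was not called (0.74, SE 0.28, edgeR FDR 0.0531), and its MB and P7 libraries overlapped. Without MB replicate 1 the change was 0.38 (edgeR FDR 0.274), and without P7 replicate 2 it was called. It was called under 8 of 26 alternatives in all. With the GC and length correction it was 0.63 and was called (edgeR FDR 0.00387). Bmi1 had the lowest GC content of the 9 genes, 40.2%, and its highest library in MB and its highest at P7 were ones in which GC-poor genes were high. The difference in median deviation between GC-rich and GC-poor genes was -0.98 log2 units in MB replicate 1, against 0.51 and 0.49 in the other MB libraries, and -0.57 in P7 replicate 2 against 0.06 and 0.48 in the other P7 libraries. The part of base composition in the Bmi1 levels was not tested.

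Cbx6 turned direction with this library. The log2 change of MB against P7 was 0.28 (SE 0.39) with all libraries, 0.70 and called without MB replicate 1 (edgeR FDR 0.0356), and -1.39 with MB replicate 1 as the only MB library (edgeR FDR 0.00736). Cbx8 was at -0.35 (SE 0.30) with all libraries, at -1.56 with MB replicate 1 alone and near 0 without it. Within MB, replicate 1 minus the mean of the other 2 libraries was -2.07 log2 units for Cbx6 and -1.55 for Cbx8. Both genes have a GC content of 54.9%, and their differences lay below the median of genes of like GC content. Pcgf2 (0.10), Cbx7 (0.27), Phc2 (-0.09) and Phc3 (-0.14) were not called against P7.

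**Figure D3:**
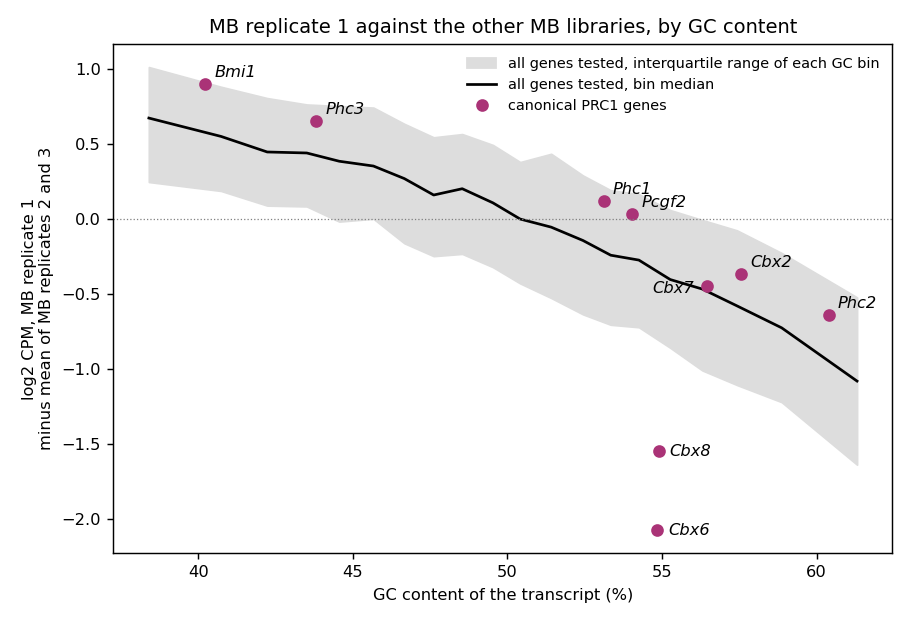
Log2 CPM of MB replicate 1 minus the mean of MB replicates 2 and 3 against the GC content of the transcript in percent. The line is the median and the grey band the middle 50% of tested genes in bins of GC content, falling from 0.67 to -1.08, and the points are the 9 genes. Bmi1 and Phc3 are at the upper left, and Cbx6 and Cbx8 are far below the band.

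Against P14, 4 of the 9 genes were called and all were higher in MB, beside 50.0% of all genes in either direction and 22.9% called higher. Cbx2 was 3.08-fold higher (log2 change 1.62, SE 0.19, edgeR FDR 8.62e-06), Bmi1 2.31-fold (1.21, SE 0.28, edgeR FDR 0.00238), Phc1 2.01-fold (1.01, SE 0.16, edgeR FDR 1.01e-04) and Pcgf2 1.40-fold (0.48, SE 0.16, edgeR FDR 0.022). Each had every MB library above every P14 library. Without MB replicate 1 the change of Bmi1 was 0.85 and was still called. The call of Pcgf2 was lost without P14 replicate 1, P14 replicate 2 or MB replicate 2, and with upper-quartile scaling. Cbx7 was at 9.56 ± 1.96 CPM in MB and 9.62 ± 0.689 CPM at P14 (SD, n = 3), and the 95% interval of the log2 difference was -0.63 to 0.61. The MB against P7 and MB against P14 comparisons share the MB libraries.

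Ordered by level, MB came first for Cbx2, Phc1 and Bmi1, E15.5 for Phc2 and Pcgf2, P14 for Cbx6, Cbx7 and Cbx8, and P7 for Phc3. Of the 36 neighbouring pairs in these orders, 2 differed in edgeR: MB over E15.5 for Cbx2 (log2 difference 0.49, edgeR FDR 0.0419) and for Phc1 (0.43, edgeR FDR 0.034). MB against E15.5 called 50.1% of all genes. All other neighbours were not separated by the test. Without MB replicate 1 there were 6 such pairs.

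Per kilobase of exon, which allows a comparison between genes, Phc2 had the highest mean level of the 9 genes at each of the 4 ages and Cbx7 the lowest in every group, as at E15.5 with 111 ± 15.7 and 1.38 ± 0.267 CPM per kb (SD, n = 3). In MB, Bmi1 was at 82.1 ± 31.8, Phc2 at 74.2 ± 18.0, Phc1 at 63.0 ± 3.13, Pcgf2 at 50.1 ± 2.41 and Cbx2 at 34.1 ± 4.83 CPM per kb (SD, n = 3). The share of each gene in the summed CPM per kb of the Cbx genes (Cbx2, Cbx6, Cbx7 and Cbx8), the Phc genes or the PCGF pair does not depend on the scaling between libraries. Shares were compared for P14 against P1 and MB against P7, 18 comparisons, in 6 of which the groups did not overlap (11 without P7 replicate 2). For 3 libraries against 3 the two-sided exact permutation test cannot go below p = 0.1, which becomes 0.3 after Benjamini-Hochberg adjustment over the 18.

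Among the 4 Cbx genes, the share of Cbx2 went from 47.9% ± 1.55 at E15.5 to 22.6% ± 1.15 at P14, with 38.1% ± 8.74 for P1 and 45.04% ± 7.35 for P7 in between. In MB it was 58.6% ± 12.6 (SD, n = 3). Cbx2 thus had the largest mean share at E15.5, at P7 and in MB. Cbx6 had the largest at P1, 45.9% ± 7.07, and at P14, 54.8% ± 1.78 (SD, n = 3). The MB shares of Cbx2 were 73.04%, 52.9% and 49.9%, beside 37.7%, 52.4% and 45.1% at P7, so that MB and P7 overlapped (two-sided exact permutation p = 0.2). Without MB replicate 1 the difference of means went from 13.6 to 6.34 percentage points. Cbx8 had a lower share in every MB library than in every P7 library (8.99% against 16.4%, exact permutation p = 0.1). Cbx7 held at most 7.75% in any library. From P1 to P14 the shares of Cbx7 and Cbx8 were higher, and that of Cbx2 lower, in every P14 library than in every P1 library (exact permutation p = 0.1 each).

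Within the Phc family, Phc2 held the largest mean share in every group, in MB 50.2% ± 8.36 beside 43.4% ± 6.06 for Phc1 (SD, n = 3). The share of Phc1 was 50.2%, 41.5% and 38.5% in the MB libraries against 29.7%, 35.5% and 33.1% at P7 (exact permutation p = 0.1), and 24.7% to 26.8% at P14. The share of Phc2 was 40.7% in MB replicate 1, below that of Phc1, and 53.5% and 56.5% in replicates 2 and 3, above it. Replicate 1 was the library low in GC-rich genes, and Phc2 has a GC content of 60.4%. With the GC and length correction, which was chosen after seeing the data, log2 CPM in that library was 8.48 for Phc1 and 8.66 for Phc2. These values are not per kb and so are not shares. The part of base composition in the shares was not tested. Between the PCGF partners, Bmi1 held 32.2% to 39.9% at E15.5, 48.1% to 50.1% at P1 and 47.7% to 52.5% at P14. In MB it held 70.1%, 55.8% and 56.6%, and at P7 55.5%, 59.8% and 34.5%, so that MB and P7 overlapped (exact permutation p = 0.4). The E15.5 libraries had more Pcgf2 than Bmi1 per kb, and the MB libraries had more Bmi1 than Pcgf2.

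**Figure D4:**
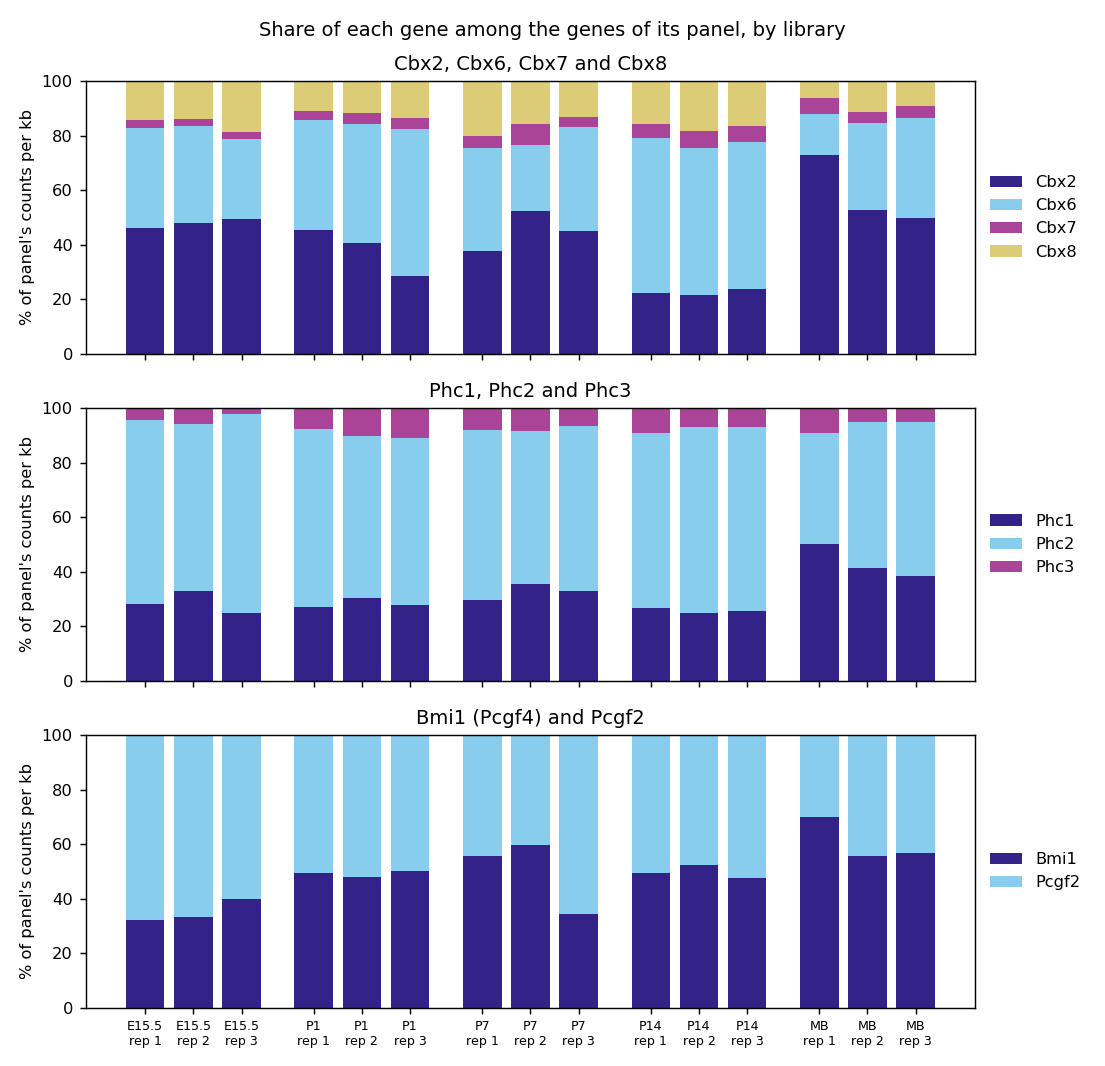
Share of each gene, in percent of the summed counts per kb of the genes in its panel, in each library, stacked to 100. Cbx2 takes 21.6% to 23.8% of the 4 Cbx genes at P14 and 49.9% to 73.04% in MB, and Phc1 takes 38.5% to 50.2% of the Phc family in MB.

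Across the 15 libraries, the log2 CPM of the 9 genes gave 36 pairs, of which 19 had a positive Pearson r and 17 a negative one, with a median of 0.10. These are descriptions over libraries that share group, depth and base composition. The highest were Phc1 with Pcgf2 (r = 0.89), Cbx2 with Phc1 (0.85) and Cbx2 with Pcgf2 (0.76), which form 1 group of genes low at P1 and P14. The lowest was Phc2 with Phc3 (-0.61). The near neighbours Cbx2 and Cbx8 had r = -0.21, and -0.018 without MB replicate 1. The neighbours Cbx6 and Cbx7 had r = 0.21, and 0.39 without that library.

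For the 3 genes with the widest range, the most alike among 11575 genes of at least 5 CPM on average were found over the 15 libraries. For Cbx2 these were Ddx27 (r = 0.98), an RNA helicase of ribosome synthesis, Adgra3 (0.97), an adhesion G protein-coupled receptor, and Ezh2 (0.97), the methyltransferase of PRC2. For Bmi1 they were Cbfb (0.97), the partner of the Runx factors, Ric3 (0.97) and Klhl20 (0.96), and for Phc1 they were Wbp11 (0.94), Spire1 (0.93) and Ubqln4 (0.93). By Spearman's rho Ezh2 was 15th for Cbx2 and Cbfb was 65th for Bmi1, so these ranks depend on the measure.

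Phc2 has a long model of 14 exons and a short one of 7 in the deposited transcript table, where each model has its own read count and reads from shared exons enter both. The count of the long model was 102% to 104% of that of the short one at E15.5, 94.6% to 95.4% at P1, 99.4% to 104% at P7, 93.7% to 95.3% at P14 and 100.5%, 95.7% and 94.2% in MB. Every E15.5 library was above every P1 and P14 library. All 6 libraries with the low Tsnax count were at 99.4% or more, and of the other 9 only E15.5 replicate 2 was. How much RNA carries the long model alone cannot be read from these counts.

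Of the other PRC1 genes, 21 of 22 listed were tested. P1 against E15.5 called 4 higher and 7 lower, beside 46.3% of all genes in either direction and 20.9% called lower. P14 against E15.5 called 1 higher and 9 lower, beside 50.9% in either direction, 26.7% higher and 24.2% lower. P7 against P1 and P14 against P7 called 1 lower each, beside 3.15% and 10.3%. Taken in either direction, the 11 and 10 of 21 called in the P1 and P14 comparisons with E15.5 are near the shares of all genes. The catalytic subunit Ring1 was at 28.4 ± 5.45 CPM at E15.5 and 17.1 ± 0.882 at P1 (SD, n = 3; log2 change -0.74, SE 0.22, edgeR FDR 0.0133). Its paralogue Rnf2 was at 171 ± 22.2 and 115 ± 12.4 CPM (-0.58, SE 0.30, edgeR FDR 0.126), and was called lower at P14 than at E15.5 (-0.94, SE 0.30, edgeR FDR 0.0172). Pcgf5, a PCGF of variant PRC1, rose 3.74-fold from E15.5 to P1 (2.22 to 8.36 CPM), and Auts2, a neuronal partner of that form, fell 2.19-fold (379 to 173 CPM). Csnk2b, a casein kinase subunit found with it, fell 2.02-fold (229 to 113 CPM). At P14 Pcgf5 was 2.68-fold above E15.5 and Auts2 2.79-fold below. Rybp, which replaces Cbx proteins in variant PRC1, fell 2.26-fold from E15.5 to P1 (-1.18, SE 0.24, edgeR FDR 0.00122). Kdm2b, the CpG island reader of variant PRC1, had a log2 change of -0.39 (SE 0.15, edgeR FDR 0.0431).

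In MB against P7, 5 of the 21 were called higher (E2f6, Pcgf5, Pcgf6, Scml2 and Wdr5) and 2 lower (Auts2 and Scmh1). Of all genes, 34.5% were called in either direction and 13.7% called higher. Pcgf5 rose 2.19-fold (log2 change 1.13, SE 0.28, edgeR FDR 0.00495). Auts2 fell 3.76-fold (-1.91, SE 0.34, edgeR FDR 5.10e-04). Ring1 (0.08, SE 0.22), Rnf2 (-0.14, SE 0.30), Rybp (-0.40, SE 0.24) and Kdm2b (0.21, SE 0.15) were not called. In MB against P14, 8 of the 21 were called higher and 1, Auts2, lower. Of all genes, 50.0% were called in either direction and 22.9% called higher. At least 2-fold changes were those of Scml2 (3.12-fold, 19.1 against 6.11 CPM), Pcgf5 (2.45-fold), E2f6 (2.38-fold, 64.5 against 27.1 CPM) and Bcor (2.23-fold, 75.1 against 33.6 CPM), all higher in MB, and Auts2, 2.26-fold lower. The median of the list was 0.13 against P7 and 0.37 against P14, with 0.02 and 0.01 for all genes.

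Of the 11 PRC2 genes, 2 were called in MB against P7, Aebp2 and Ezh2, both higher. Of all genes, 34.5% were called there in either direction and 13.7% called higher. In MB against P14, 6 were called, all higher, beside 50.0% of all genes in either direction and 22.9% called higher. Against P14 Ezh2 was 3.45-fold and Aebp2, an accessory subunit, 2.25-fold higher in MB. Ezh2 was at 343, 377 and 330.2 CPM in MB, 159, 254 and 204 at P7 and 105, 97.9 and 102 at P14. Every MB library was above every P7 library, and every P7 library above every P14 library. The log2 change was 0.77 (SE 0.19, edgeR FDR 0.00441) for MB against P7 and -1.02 (SE 0.19, edgeR FDR 0.00873) for P14 against P7, beside the 0.75 and -0.87 of Cbx2. Its paralogue Ezh1 had changes of 0.38 (SE 0.20) and -0.08 (SE 0.20) and was not called. Of the 3 HP1-class Cbx genes, which bind another histone mark, Cbx1 was the one tested, and was called lower at P14 than at E15.5 and higher in MB than at P14. The 7 genes for removal of H2A ubiquitin gave no edgeR call in MB against P7, where 2 had an unadjusted p under 0.05, beside 34.5% of all genes called. In P1 against E15.5 there were 5 calls, 2 higher and 3 lower, beside 46.3% of all genes. The higher ones were Asxl2 (2.06-fold, 103 against 50.1 CPM) and Mysm1 (2.14-fold, 77.3 against 36.2 CPM).

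Of the Ink4-Arf genes and related cell cycle inhibitors, among them known targets of PRC1, 6 of 7 listed were tested. The related inhibitors tested were Cdkn1a, Cdkn1b and Cdkn1c. In MB against P7, 5, among them Cdkn2a, were called higher and 1 lower. Of all genes, 34.5% were called in either direction and 13.7% called higher. Cdkn2c, an Ink4 inhibitor of cyclin D kinases, was at 111, 180.0 and 154 CPM in MB and 69.2, 54.0 and 44.0 at P7 (log2 change 1.41, SE 0.21, edgeR FDR 8.08e-05). Cdkn1a, a p53 target, rose 3.93-fold (1.97, SE 0.26, edgeR FDR 3.25e-05), and Cdkn1c fell 2.92-fold (-1.55, SE 0.29, edgeR FDR 6.99e-04). Cdkn2b, the Ink4 gene next to Cdkn2a, rose 5.30-fold, from 0.937 to 4.90 CPM. Cdkn2a itself was at 18.4, 20.3 and 8.49 CPM in MB and at most 0.271 CPM in any other library. Its log2 change of 7.04 (SE 0.65) against P7 stands over P7 levels of at most 0.154 CPM. Cdkn2a passed the count filter only through its MB libraries, so the direction of its call was fixed in advance. Bmi1 was called higher in MB than at P14, but it was not called against P7 (edgeR FDR 0.0531), where its libraries overlapped. A link between Bmi1 and Cdkn2a in these cells was not tested. Microglia and macrophage markers summed to 537, 233 and 200 CPM in MB and 62.6 to 166 CPM at P7, with 7 of 10 called higher in MB. Their part in these differences was not tested.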

How the data were processed

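The data are poly(A) RNA-seq libraries of Percoll-purified cells, sequenced on a HiSeq 2500 from TruSeq v2 libraries, per the labels' protocols. The authors deposited raw read counts per gene, per transcript and per start-site model for each library. The submitters' processing notes name Trimmomatic, TopHat, StringTie, HTSeq and the mm9 build, with no versions or roles, and whether counting used strand is not given in the sources used here. Gene counts totalled 12597472 to 43443132 per library, and 0.52% to 0.749% of reads were ambiguous and 22.9% to 44.6% had several alignments, so these stay out of the counts.

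Groups followed the labels. Counts were filtered (filterByExpr, minimum count 10, total 15), TMM-scaled and fitted over all 15 libraries with edgeR 4.0.16 (R 4.3.3) by quasi-likelihood with group means as the only terms, leaving 10 residual degrees of freedom. P-values were adjusted by the Benjamini-Hochberg method over 15259 genes, and SE is the log2 change over the square root of F. The fit was tested on simulated data. CPM per kb used the union exonic length of the deposited transcript models. GC content was known for 14980 of the 15259 genes. Alternatives were other scalings, no filter, DESeq2 1.42.0, a replicate block, the other tables, groups alone, each library left out, and libraries split by counting set. The GC and length correction and the omission of MB replicate 1 with P1 replicate 3 were chosen after seeing the data.

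All 9 genes are named with values. Of the listed partner genes, Ring1, Rnf2, Ezh2, Ezh1, Kdm2b, Rybp and genes called with at least a 2-fold change in a comparison described for their list carry values, and the most alike genes are the 3 of highest Pearson r for the 3 genes of widest range. The genes and lists were chosen with earlier results of these data known. 1 planned gene is not reported here, so the Cbx shares are over the 4 Cbx genes named.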

Additional observations from a re-analysis of the deposited data

How the results depend on the processing

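Counts of called genes among the 9 depended on the processing, and P1 against E15.5, P14 against E15.5, MB against P7 and MB against P14 kept at least 1 call under every alternative run. In the test over the 4 ages, with 5 calls, there were 3 with the start-site table (which lacks Pcgf2 and Phc2), 8 with DESeq2 and 4 to 8 with 1 library left out, and P1 against E15.5, with 4, had 2 with the start-site table. P7 against P1, with 1 call, had 0 with the groups alone and 0 to 2 with 1 library left out, and P14 against P7, also with 1, had 2 with the groups alone or DESeq2 and 0 to 3 with 1 left out. P14 against P1, with 0, had 4 with the groups alone, 1 with the split by counting set or DESeq2 and 0 to 1 with 1 left out. P14 against E15.5, with 4, had 7 with the groups alone. MB against P7, with 2, had 1 with the groups alone, 4 with the split by counting set and 1 to 3 with 1 left out. Neighbours in the order of levels, with 2 pairs, had 0 with upper-quartile scaling, 4 with DESeq2 and 0 to 6 with 1 left out. Shares whose groups did not overlap, 6 of 18, were 6 to 11 with 1 library left out, where a smaller group overlaps less readily by chance. The split by counting set gives no value for P7 against P1, P14 against P7 or the 4 ages. Where a lone library is left in a group, it is assumed to vary like the others.

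Of the alternatives chosen after seeing the data, the GC and length correction gave 2 calls for P7 against P1, 2 for P14 against P7, 1 for P14 against P1, 7 for P14 against E15.5 and 7 neighbours. Leaving out MB replicate 1 and P1 replicate 3 together gave 8 over the 4 ages, 2 for P7 against P1, 3 for P14 against P7, 2 for P14 against P1 and 6 neighbours. The cause was not tested.

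Direction turned for log2 changes that were not called with all libraries. Under the GC and length correction these were Bmi1 (-0.00403) in P1 against E15.5, Phc2 (-0.19) and Phc3 (0.091) in P14 against P7, Pcgf2 (-0.043) and Phc2 (-0.030) in P14 against P1, Cbx8 (-0.021) in P14 against E15.5, Phc2 (0.19) in MB against P7, and Phc2 (0.38) and Cbx7 (0.38) in MB against P14. Without MB replicate 1 and P1 replicate 3 they were Cbx6 (-0.00367) in P1 against E15.5, Cbx8 (0.0022) and Phc2 (0.10) in MB against P7, and Phc2 (0.055) and Cbx7 (0.13) in MB against P14. In the split by counting set they were Phc3 (0.25), Cbx7 (-0.057) and Cbx6 (-1.39) in MB against P7, and Phc2 (0.054) and Cbx7 (0.13) in MB against P14, the last also at 0.011 in the start-site table and 0.00461 in the transcript table. With 1 library left out, the ranges that crossed 0 were Cbx6 from -0.092 to 0.30 in P1 against E15.5, Phc2 from -0.038 to 0.18 in P14 against P7, Phc3 from -0.088 to 0.19 in P14 against P1, Cbx8 from -0.67 to 0.0022, Phc2 from -0.23 to 0.10 and Cbx6 from -0.13 to 0.70 in MB against P7, and Phc2 from -0.28 to 0.055, Phc3 from -0.28 to 0.11 and Cbx7 from -0.17 to 0.13 in MB against P14.

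The labels give each group replicate numbers 1 to 3. Deviations of same-numbered libraries correlated at -0.31 to 0.33, and 5 of 15 libraries correlated best with their own number, so the numbers do not pair them. With a replicate block P7 against P1 went from 1 call to 0 and the neighbours from 2 to 0, and the other counts stayed within 1.5 times.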
